A study of Homo sapiens with 24 samples.

Results

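The genes described here are 10 parts of the machinery through which microRNAs act: the Argonaute genes AGO1, AGO2, AGO3 and AGO4, the GW182 genes TNRC6A, TNRC6B and TNRC6C, the endonuclease gene DICER1 and the RNA helicase genes MOV10 and DDX6. They are a list of names fitted to the pathway, made with earlier results of these data known, and were 10 of the 57500 gene identifiers counted in each library. The cells were H2052, an established human line of pleural mesothelioma, which is a cancer of the membrane around the lungs. All of them received 20 nM of a 3′-biotinylated microRNA mimic with Lipofectamine RNAiMAX and were collected after 12 h or 72 h. The mimic was either miR-497-5p, written miR-497-5p-RE in some labels with a suffix that is not explained in the sources used here, or a scrambled mimic without intended targets, called control here. At each time 2 kinds of library were made: one from the input RNA of the cells, named RNA-seq in what follows, and one from the RNA that streptavidin beads captured with the biotinylated mimic out of cytoplasmic extract, named the pull-down. Assay, time and mimic define 8 groups of 3 libraries, 24 in all, each made from poly(A) RNA. The control groups received a biotinylated mimic too, so every group carries the lipid, the biotin and an excess of 1 small RNA, and all results are from 1 cell line.

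A microRNA works as the guide of an Argonaute protein. DICER1 cuts the precursor hairpin into a short duplex, 1 strand of which stays in Argonaute, and the bases near the 5′ end of that strand, the seed, pair with sites that lie mostly in the 3′ untranslated region (3′ UTR) of target transcripts. Argonaute then binds a GW182 protein, which recruits deadenylases, and the helicases DDX6 and MOV10 act in the repression and decay that follow. The transcripts of these genes can themselves hold seed sites, so a mimic can in principle act on the genes that it works through.

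The sequences that the pull-down turns on are those of the mimic's guide and of its sites in the members' transcripts. The mature miR-497-5p of RefSeq (GRCh38.p14, chr17:7017979-7017999, minus strand) is printed with its seed, bases 2 to 8, in capitals, above 2 relatives that share all 7 seed bases.

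miR-497-5p: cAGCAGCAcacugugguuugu
miR-195-5p: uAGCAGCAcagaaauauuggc
miR-16-5p: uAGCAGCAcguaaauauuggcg

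The words searched on the sense strand were TGCTGCT (7mer-m8, which pairs with the whole seed), TGCTGCTA (8mer, the same followed by A), GCTGCTA (7mer-A1) and GCTGCT (6mer, contained in the other 3). In the longest 3′ UTR that GENCODE release 44 annotates, 7 of the 10 members held at least 1 7mer-m8 or 8mer: AGO1, AGO2, AGO3, AGO4, TNRC6B, TNRC6C and DICER1. Of 19248 protein-coding genes 22.9% held one. An 8mer was found in AGO1, AGO3 and TNRC6B, against 4.46% of genes. TNRC6A and DDX6 held only 6mers, and MOV10 held a 7mer-A1. These 3′ UTRs are long, from 2414 bases in TNRC6A to 16755 in AGO3, apart from the 239 bases of MOV10, and longer 3′ UTRs hold more matches: the share was 57.1% in the 10% of genes with the longest 3′ UTRs, to which AGO1, AGO2, AGO3 and TNRC6B belong. It was 42.6% in the next 10%, with AGO4, TNRC6C, DICER1 and DDX6. A match is a description of the letters and does not show that the site is used.

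The member sites are shown as the 22 bases of the transcript that end with the match, with the match in capitals, to let the contexts be compared. Only the first 7mer-m8 or 8mer from the stop codon is given for AGO4, TNRC6C and DICER1, and all 8mers of the others.

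AGO1 8mer at base 9429 of 10925, chr1:35929022-35929043, plus strand: acaaatatactgaaTGCTGCTA
AGO1 8mer at base 9944 of 10925, chr1:35929537-35929558, plus strand: tttaccctgtcagaTGCTGCTA
AGO3 8mer at base 15438 of 16755, chr1:36071169-36071190, plus strand: tcccactagataatTGCTGCTA
AGO4 7mer-m8 at base 820 of 4285, chr1:35854410-35854431, plus strand: aaagtgcccattttaTGCTGCT
TNRC6B 8mer at base 1947 of 12567, chr22:40325174-40325195, plus strand: tgtcctctgtaactTGCTGCTA
TNRC6C 7mer-m8 at base 3435 of 3977, chr17:78108265-78108286, plus strand: atggggaaggtggtgTGCTGCT
DICER1 7mer-m8 at base 2492 of 4270, chr14:95088000-95088021, minus strand: ttatgaacgcttttgTGCTGCT
MOV10 7mer-A1 at base 167 of 239, chr1:112700659-112700680, plus strand: agaatgacacatcaaGCTGCTA

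Positions are counted from the first base after the stop codon, and coordinates are on GRCh38. TNRC6B held the most sites, an 8mer and 4 7mer-m8 sites spread over its 3′ UTR. AGO1 held a 7mer-m8 at base 1597 and both 8mers in the last part of its 3′ UTR. Of its 3 annotated transcripts with a 3′ UTR, 2 hold a whole-seed site. The same count was 1 of 2 for AGO2, 1 of 3 for AGO3, 1 of 1 for AGO4, 3 of 5 for TNRC6B, 1 of 4 for TNRC6C and 8 of 12 for DICER1. The DICER1 window printed above lies in 5 of those 12. AGO2 held 3 7mer-m8 sites, at bases 1602, 1634 and 11250 of 11888. The 7mer-m8 word also occurred in the coding region of 7 members, TNRC6A and MOV10 among them, against 32.3% of genes. Coding regions of like length were not compared, so this is not shown to be an excess.

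**Figure D1:**
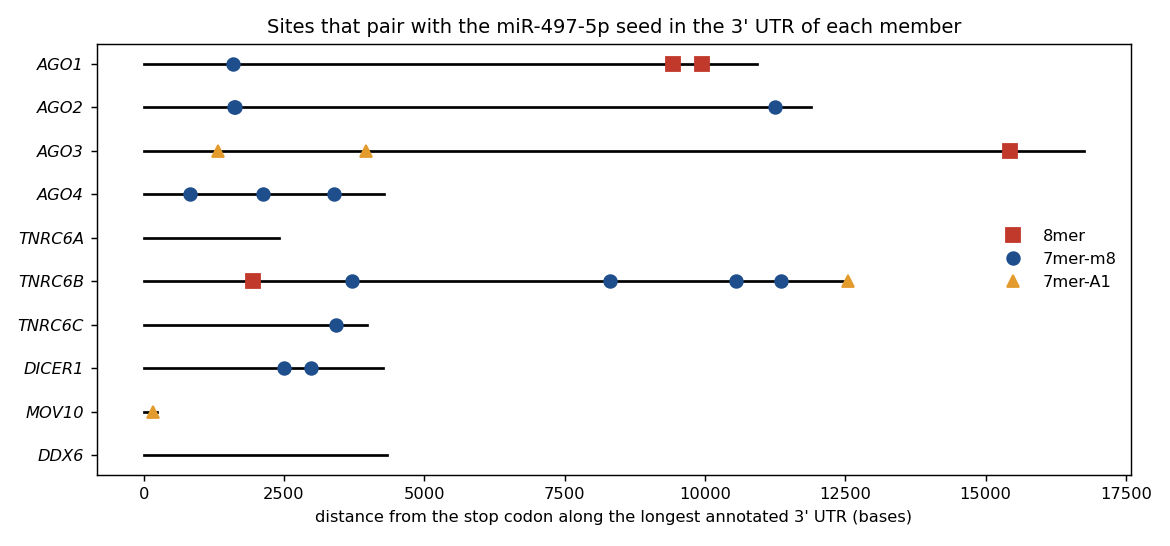
Each line is the longest annotated 3′ UTR of a member, drawn to scale in bases from the stop codon, with 8mer sites as red squares, 7mer-m8 sites as blue circles and 7mer-A1 sites as orange triangles. TNRC6B carries 5 sites that pair with the whole seed, and TNRC6A and DDX6 carry none; the sites of AGO2 at bases 1602 and 1634 overlap in the drawing.

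The RNA-seq libraries held 21561816 to 30602007 counts and the pull-down libraries 8262425 to 30650982, the lowest being replicate 2 of miR-497-5p at 72 h. The biological coefficient of variation was 0.0601 in RNA-seq and 0.349 in the pull-down, so only larger differences could be seen in the pull-down. Whether replicates came from separate cultures is not stated in the labels. The p-values therefore measure only how these libraries vary, which may be technical. Of 9 mesothelial markers, which sum to 3835 to 5930 CPM per library, MSLN, PDPN, VIM and the keratins were present in every group. WT1 ranged from a group mean of 22.5 CPM in RNA-seq at 12 h to 2.17 CPM in the 72 h miR-497-5p pull-down. CALB2 and UPK3B were at or below 2.46 CPM in every group mean. Most libraries of 12 h held more RNA from genes of squamous epithelium, a tissue that the line does not come from, than those of 72 h. The 26 markers summed to 842, 781 and 326 CPM in the control and 1080, 171 and 297 CPM in the miR-497-5p RNA-seq libraries. They summed to 176, 304 and 742 CPM in the control and 1026, 697 and 246 CPM in the miR-497-5p pull-down libraries, and to 56.5 to 201 CPM at 72 h, where SPRR1A, SPRR3, KRT1 and DSG3 were at 0 in all 12 libraries and 11 to 21 of the 26 were at 0 in each. RNA-seq replicate 2 of miR-497-5p at 12 h, at 171 CPM, did not exceed the RNA-seq libraries of 72 h. KRT10 made up most of the 72 h RNA-seq sums and went the other way. Its RNA-seq means were 108 CPM in the control and 136 CPM with miR-497-5p at 12 h, and 148 and 161 CPM at 72 h. The 5 leukocyte markers summed to 1.88 to 14.4 CPM. In cultures measured in bulk, fewer cells with a transcript and less of it per cell cannot be told apart.

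The members differed widely in level. Levels between genes are given as CPM per kilobase of exon (CPM, the standard depth-scaled read count, with library sizes set by TMM, here divided by the length of all exons in the files), as the mean ± SD of 3 libraries. In the 12 h control RNA-seq libraries DDX6 stood highest at 6.71 ± 0.14, followed by AGO2 at 5.67 ± 0.27, and TNRC6B stood lowest at 0.44 ± 0.06. Among the Argonautes AGO2, the main one that cuts its target, came first, then AGO1 at 3.10 ± 0.18, AGO4 at 1.83 ± 0.05 and AGO3 at 0.61 ± 0.01, with no overlap between their libraries. Among the GW182 genes TNRC6A at 2.89 ± 0.13 stood above TNRC6C at 0.67 ± 0.09 and TNRC6B. Of the 9 pairs of neighbours in the order of all members, AGO1 with TNRC6A and TNRC6C with AGO3 overlapped in range and so did not differ beyond their spread. At 72 h DDX6 reached 17.3 ± 0.31 with miR-497-5p, and the order below it began with AGO2, AGO1 and TNRC6A in both the control and the miR-497-5p libraries.

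At 12 h the RNA of the 2 Argonautes with the highest levels was lower with miR-497-5p. AGO2 and AGO1 fell in RNA-seq, each to 0.83 times the control, while AGO3, AGO4, the GW182 genes, DICER1 and the helicases did not pass the test. Calls rest on an adjusted p under 0.05 in edgeR's quasi-likelihood test, with Benjamini-Hochberg adjustment over all genes, and every adjusted p below is from that test. In this comparison 2 of 10 members were called, both lower, against 12.5% of the 17335 genes tested, 7.25% called higher and 5.3% lower. The median log2 fold change of the members was -0.15 (-0.07 with an offset for transcript length), and that of all genes tested was 0.005. Mitochondrial transcripts took 3.92 to 4.13% of the control and 4.27 to 4.5% of the miR-497-5p counts, without overlap, and their part in the result was not tested.

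AGO2 (ENSG00000123908, chromosome 8, 140520156 to 140635619, minus strand) read 85.3, 89.9 and 93.9 CPM in the control libraries and 73.9, 73.3 and 75.4 CPM with miR-497-5p. All 3 treated libraries lay below all 3 controls. Its log2 fold change was -0.27 ± 0.04 (SE, n = 3 libraries per group, adjusted p = 7.96e-06). AGO1 (ENSG00000092847, chromosome 1, 35869808 to 35930528, plus strand) read 40.6, 43.0 and 45.6 CPM against 37.5, 36.2 and 33.9 CPM. Its groups did not overlap either, and its log2 fold change was -0.27 ± 0.05 (adjusted p = 0.00042). AGO3 and AGO4 are less studied Argonautes that also load microRNAs. AGO4 (chromosome 1, 35808172 to 35857890) read 13.2, 13.7 and 13.0 CPM against 11.4, 12.2 and 11.9 CPM, a log2 fold change of -0.16 ± 0.09 (adjusted p = 0.255) with groups that did not overlap. AGO3 (chromosome 1, 35930718 to 36072500) had a log2 fold change of -0.14 ± 0.08 (adjusted p = 0.326) with overlapping groups. AGO1, AGO3 and AGO4 lie side by side on chromosome 1.

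None of the remaining members passed the test in RNA-seq at 12 h. DICER1 (ENSG00000100697, chromosome 14, 95086228 to 95158010, minus strand) read 18.2, 17.2 and 16.7 CPM in the control and 13.6, 16.2 and 15.2 CPM with miR-497-5p. These groups did not overlap, but the log2 fold change of -0.21 ± 0.07 did not pass (adjusted p = 0.0577). TNRC6A, the GW182 gene with the highest level, had a log2 fold change of -0.16 ± 0.06 (adjusted p = 0.065). TNRC6B, with the most seed sites, was at -0.01 ± 0.10 and TNRC6C at 0.10 ± 0.11. DDX6 was at -0.09 ± 0.04 and MOV10 at -0.07 ± 0.08. Scaled by library totals, TNRC6A (adjusted p = 0.0136), DICER1 (adjusted p = 0.0165) and DDX6 (adjusted p = 0.0272) were called lower as well. Of the 10 members 4 had all treated libraries below all controls, and 11.9% of all genes did.

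Long transcripts as a class were lower in this comparison: the 10% of genes with the longest exons (1734 genes), to which 8 members belong, had a median log2 fold change of -0.08, with 13.8% called lower. With an offset for transcript length both Argonautes were still called, AGO2 at -0.19 ± 0.04 (adjusted p = 0.00196) and AGO1 at -0.19 ± 0.05 (adjusted p = 0.0189). Squamous marker sums differed between the libraries as given above, and without the 3 RNA-seq libraries above 500 CPM AGO2 was at -0.34 and AGO1 at -0.38. That leaves 1 control against 2 miR-497-5p libraries, with the lone control assumed to vary like the other groups, so these values do not test the calls.

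**Figure D2:**
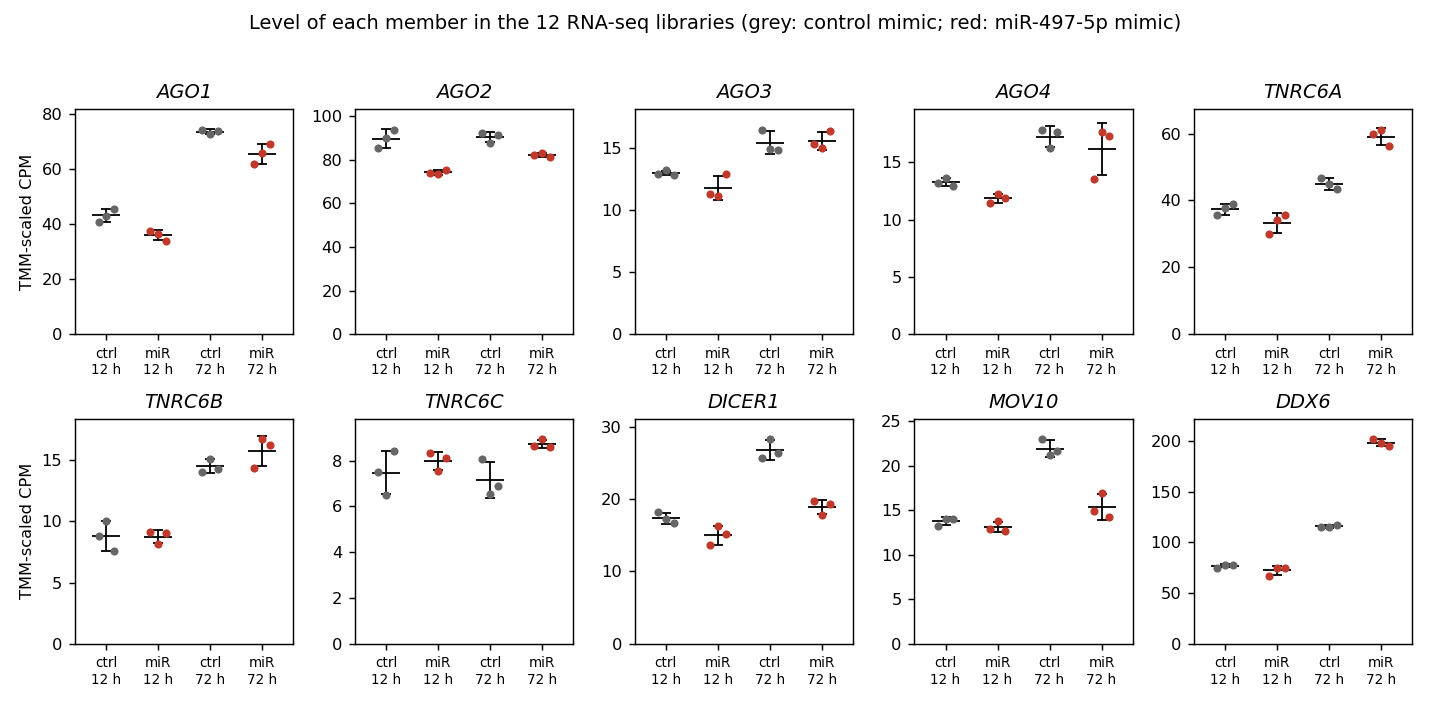
TMM-scaled CPM of each member in the 12 RNA-seq libraries by group, control in grey and miR-497-5p in red, with the mean and SD of 3 libraries in black and each axis starting at 0. AGO1 and AGO2 lie lower with miR-497-5p at 12 h, and at 72 h DDX6 lies far above and DICER1 and MOV10 below the control.

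At 72 h the members of the machinery moved apart. DDX6 and TNRC6A rose, DICER1 and MOV10 fell, and AGO1 and AGO2 fell by less than DICER1 and MOV10. By this time 57.5% of all genes tested were called, 27.9% higher and 29.6% lower, so the 7 of 10 members called, 3 higher and 4 lower, are near the share of all genes. The members' median log2 fold change was -0.04 (-0.12 with an offset for transcript length) and that of all genes 0.003. The mitochondrial share of counts also differed between the groups, 5.75 to 6.01% in the control and 8.51 to 8.85% with miR-497-5p, and its part in the result was not tested.

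DDX6, a helicase that couples deadenylation to translational repression and decapping (ENSG00000110367, chromosome 11, 118747766 to 118791149, minus strand), read 115, 115 and 117 CPM in the control and 202, 198 and 195 CPM with miR-497-5p. The groups were far apart, with a log2 fold change of 0.78 ± 0.04, or 1.71-fold (adjusted p = 3.22e-21). This was the largest change among the members in this comparison, in a gene whose 3′ UTR holds no 7mer or 8mer word. MOV10 (ENSG00000155363, chromosome 1, 112673141 to 112700746, plus strand), a helicase that travels with Argonaute complexes, read 23.0, 21.2 and 21.6 CPM against 14.9, 17.0 and 14.2 CPM. It fell to 0.70 times the control in groups that did not overlap (log2 fold change -0.51 ± 0.08, adjusted p = 2.49e-07).

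DICER1 read 25.7, 28.3 and 26.3 CPM in the control libraries and 19.7, 17.8 and 19.3 CPM with miR-497-5p. It fell to 0.71 times the control, without overlap (log2 fold change -0.50 ± 0.07, adjusted p = 7.86e-08). Of the Argonautes, AGO1 read 74.2, 72.7 and 73.6 CPM against 61.7, 65.8 and 68.9 CPM, and fell by 0.17 ± 0.05 on the log2 scale (adjusted p = 0.00553). Without replicate 1 of the miR-497-5p group, the library in which AGO1 was lowest, its log2 fold change was -0.12 and the call was lost (adjusted p = 0.0685). AGO2 read 92.2, 87.8 and 91.5 CPM against 82.3, 83.3 and 81.3 CPM, and fell by 0.14 ± 0.04 (adjusted p = 0.00675). Scaled by library totals the log2 fold changes were -0.27 for AGO1 and -0.24 for AGO2, and with an offset for transcript length -0.29 and -0.27. AGO3 and AGO4 were at 0.02 ± 0.09 and -0.09 ± 0.09, with overlapping groups.

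Of the 3 GW182 genes, whose proteins are scaffolds between Argonaute and the deadenylases, 2 were called, both higher. TNRC6A (ENSG00000090905, chromosome 16, 24610209 to 24827632, plus strand) read 46.7, 44.8 and 43.3 CPM in the control and 59.9, 61.2 and 56.1 CPM with miR-497-5p, without overlap. It rose 1.31-fold (log2 fold change 0.39 ± 0.06, adjusted p = 1.37e-07). TNRC6C read 8.06, 6.53 and 6.91 CPM against 8.64, 8.94 and 8.59 CPM, and was called at 0.28 ± 0.12 (adjusted p = 0.0385). That call was lost under 9 of 14 other settings, among them leaving out any 1 miR-497-5p library or replicate 2 or 3 of the control, with adjusted p up to 0.207. TNRC6B was at 0.12 ± 0.10 (adjusted p = 0.302). The same 8 members stood in a length class with a median of 0.15 at this time, 41.6% of it called higher. Of the 10 members 7 had groups that did not overlap, against 63.7% of genes, 31.6% above and 32.2% below the control.

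The effect of miR-497-5p itself changed between 12 h and 72 h for 4 members in RNA-seq, 2 each way, against 48.8% of all genes, 22.5% upward and 26.2% downward. The difference of the log2 fold changes, 72 h minus 12 h, was 0.86 ± 0.06 for DDX6 (adjusted p = 6.6e-17) and 0.56 ± 0.08 for TNRC6A (adjusted p = 2.22e-07). It was -0.45 ± 0.11 for MOV10 (adjusted p = 0.00081) and -0.30 ± 0.10 for DICER1 (adjusted p = 0.0155). The DICER1 call was lost without replicate 2 of the 12 h miR-497-5p, the 72 h control or the 72 h miR-497-5p libraries, with adjusted p up to 0.0773. With an offset for transcript length the difference was -0.48 for DICER1 and 0.37 for TNRC6A, both still called. For AGO2 the difference was 0.14 ± 0.06 (adjusted p = 0.0634) and for AGO1 0.10 ± 0.08 (adjusted p = 0.296), so a weaker effect on the Argonautes at the later time was not established. The order of the times also depended on processing. With the length offset AGO1 was at -0.185 at 12 h and -0.29 at 72 h, and AGO2 at -0.187 and -0.271, larger falls at 72 h.

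**Figure D3:**
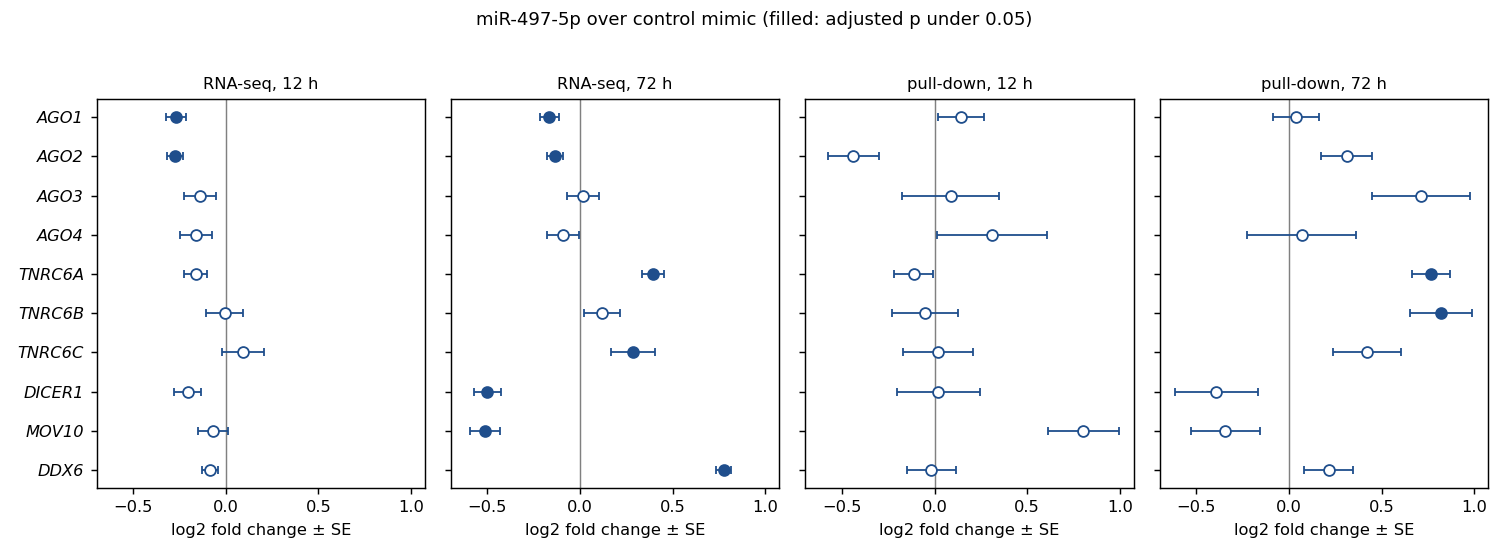
Log2 fold change of each member, miR-497-5p over control, with its standard error, in RNA-seq and pull-down at both times. Filled points passed an adjusted p of 0.05: AGO1 and AGO2 in RNA-seq at 12 h, 7 members in RNA-seq at 72 h, no member in the pull-down at 12 h, and TNRC6A and TNRC6B in the pull-down at 72 h.

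In the pull-down at 12 h, where transcripts bound to the mimic would be gained, no member passed the test, and 0.595% of 17477 genes did. At an unadjusted p under 0.05, 2 of the 10 did, MOV10 and AGO2, against 10.1% of genes. DESeq2 called 1, MOV10, against 5.73% of the 5956 genes that it adjusted. Data were simulated with the spread of the fit over the 12 pull-down libraries of both times, not of 12 h alone. There 38.5% of genes changed by 1 on the log2 scale were called and 3.12% of genes changed by 0.5. A gain of that smaller size would mostly have gone undetected at this spread.

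MOV10 came closest. It read 10.0, 8.18 and 7.49 CPM in the control pull-down and 16.5, 13.4 and 15.0 CPM with miR-497-5p. All treated libraries lay above all controls, with a log2 fold change of 0.80 ± 0.19 (adjusted p = 0.0508). It was called with library totals, relative log expression scaling, no filter on low counts or DESeq2, and over 15 other settings its adjusted p ranged from 0.00211 to 0.147. AGO2 read 63.4, 58.7 and 62.6 CPM against 56.1, 40.8 and 39.6 CPM, all treated libraries lower, with a log2 fold change of -0.44 ± 0.14 (adjusted p = 0.198). It was called without replicate 1 of the miR-497-5p group (adjusted p = 0.036), the pull-down library with the highest squamous marker sum, 1026 CPM. Without the 3 pull-down libraries above 500 CPM AGO2 was at -0.60 and MOV10 at 0.74, but only 1 miR-497-5p library, assumed to vary like the other groups, then stands against 2 controls, and no call is drawn from these values. The part of the marker differences in these values was not tested.

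AGO1, with 2 8mers, had a pull-down log2 fold change of 0.14 ± 0.13 at 12 h, and TNRC6B, with 5 whole-seed sites, one of -0.05 ± 0.18. AGO4 was at 0.31 ± 0.30 and AGO3 at 0.09 ± 0.26, each with wide errors. DICER1, TNRC6C and DDX6 lay within 0.02 of 0, with errors of 0.22, 0.19 and 0.13, and TNRC6A was at -0.11 ± 0.11. Of the 10 members 2 had groups that did not overlap, 1 each way, against 16.4% of all genes, 8.11% above and 8.33% below the control.

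At 72 h TNRC6A and TNRC6B rose in the pull-down, 1.70-fold and 1.77-fold, and no other member passed. The 2 of 10 members called are near the share of all genes, 22.7% called in either direction and 10.2% called higher. The median log2 fold change of the members was 0.26 and that of all genes 0. The members' median was 0.08 with an offset for transcript length. The 10% of genes with the longest exons, with 8 members among them, had a median of 0.19 and 18.6% called higher. Mitochondrial transcripts took 0.826 to 0.889% of the control and 1.16 to 1.25% of the miR-497-5p counts, and their part in the result was not tested.

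TNRC6A read 158, 148 and 149 CPM in the control pull-down and 247, 246 and 280 CPM with miR-497-5p. The groups were well apart, with a log2 fold change of 0.77 ± 0.10 (adjusted p = 4.36e-06). TNRC6B (ENSG00000100354, chromosome 22, 40044817 to 40335808, plus strand) read 31.3, 27.4 and 32.3 CPM against 60.7, 54.7 and 45.5 CPM. Its groups did not overlap, with a log2 fold change of 0.82 ± 0.17 (adjusted p = 0.000652). With an offset for transcript length it was 0.54 ± 0.18 (adjusted p = 0.0288), and with a replicate block beside the offset the call was lost, at 0.52 (adjusted p = 0.0521). TNRC6C (ENSG00000078687, chromosome 17, 77959240 to 78108835, plus strand) read 25.7, 33.9 and 32.4 CPM against 39.5, 42.8 and 40.9 CPM. It also lay above all controls, but its log2 fold change of 0.42 ± 0.19 did not pass (adjusted p = 0.11).

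Among the Argonautes only AGO3 came near the threshold. It read 12.9, 11.3 and 7.39 CPM in the control and 13.9, 22.1 and 16.2 CPM with miR-497-5p, where 22.1 CPM rests on 164 counts in the shallowest library. Its log2 fold change of 0.71 ± 0.26 missed the threshold (adjusted p = 0.0537). Under 5 of 14 other settings it was called, with adjusted p from 0.0302 to 0.321 over all 14. The 5 were relative log expression scaling, DESeq2, the 6 libraries alone, and leaving out replicate 1 of either group. AGO2 was at 0.31 ± 0.14 (adjusted p = 0.111), AGO4 at 0.07 ± 0.30 and AGO1 at 0.04 ± 0.12. DICER1 and MOV10 were at -0.39 ± 0.22 and -0.34 ± 0.19 with all treated libraries below all controls, and DDX6, which rose in RNA-seq, was at 0.21 ± 0.13 with overlapping groups. Groups did not overlap for 6 of 10 members, 4 above and 2 below the control, against 35.5% of genes, 17.1% above and 18.3% below. Fitted to the 6 libraries of this comparison alone, AGO2, AGO3 and TNRC6C were called as well. With an offset for transcript length AGO3 was at 0.41 (adjusted p = 0.321), AGO2 at 0.08 (adjusted p = 0.791), DDX6 at 0.07 and AGO1 at -0.15.

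**Figure D4:**
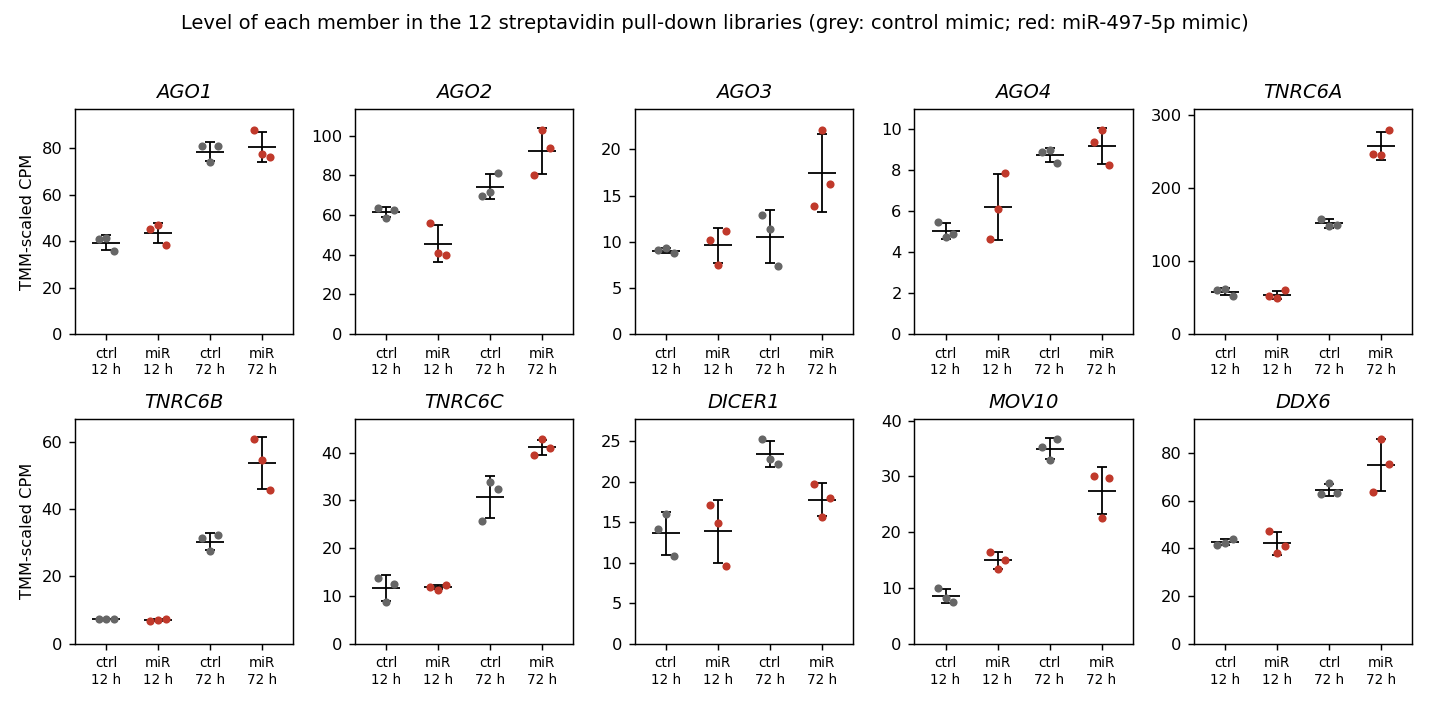
TMM-scaled CPM of each member in the 12 pull-down libraries by group, control in grey and miR-497-5p in red, with the mean and SD of 3 libraries in black and each axis starting at 0. The 3 GW182 genes lie higher at 72 h than at 12 h under both mimics and higher with miR-497-5p than with the control at 72 h.

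Between the times the pull-down effect changed for 4 members, 3 upward and 1 downward, against 12.2% of genes, 5.94% upward and 6.27% downward. The difference of the log2 fold changes, 72 h minus 12 h, was 0.88 ± 0.15 for TNRC6A (adjusted p = 0.000202) and 0.75 ± 0.20 for AGO2 (adjusted p = 0.0109). AGO2 lay below the control at 12 h and above it at 72 h, but neither effect passed the test alone, and its groups overlapped at 72 h. The difference was 0.87 ± 0.25 for TNRC6B (adjusted p = 0.0186), a call lost without replicate 2 of the 72 h control (adjusted p = 0.0585) or replicate 1 of the 72 h miR-497-5p libraries (adjusted p = 0.0698). For MOV10 it was -1.15 ± 0.27 (adjusted p = 0.00445), from above the control at 12 h to below it at 72 h, again with neither effect called alone. With an offset for transcript length the AGO2 call (adjusted p = 0.0636) and the TNRC6B call (adjusted p = 0.074) were lost.

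Whether a transcript was held beyond the change of its own amount was asked in 1 fit of both assays. The effect in RNA-seq was subtracted from that in the pull-down. Both assays share 1 estimate of spread there, with a biological coefficient of variation of 0.2 at 12 h and 0.175 at 72 h. The pull-down alone had 0.349, so the errors and adjusted p of these differences may understate its noise. At 72 h AGO2, TNRC6A and DDX6 had a smaller SE here than in the pull-down alone, and TNRC6B a larger one. At 72 h TNRC6B, AGO2 and TNRC6A were called above 0 and DDX6 below. These are 4 of 10 members, against 14.5% of genes, 7.46% above and 7.01% below 0. The difference on the log2 scale was 0.68 ± 0.18 for TNRC6B (adjusted p = 0.013), 0.42 ± 0.12 for AGO2 (adjusted p = 0.0226) and 0.35 ± 0.09 for TNRC6A (adjusted p = 0.00906). With an offset for transcript length TNRC6A was still called, while TNRC6B (adjusted p = 0.0507) and AGO2 (adjusted p = 0.063) were not. The AGO2 call was also lost without replicate 1 or 3 of either RNA-seq group at 72 h, with adjusted p of 0.0552 to 0.0591.

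DDX6 went the other way, at -0.59 ± 0.11 (adjusted p = 0.00126): its RNA rose 1.71-fold in the cells, while its pull-down level, 62.9, 67.3 and 63.1 CPM in the control and 63.8, 85.7 and 75.3 CPM with miR-497-5p, did not pass the test. AGO3 was at 0.67 ± 0.28 (adjusted p = 0.139). DICER1 and MOV10, lower in RNA-seq, were at 0.10 ± 0.17 and 0.16 ± 0.17. At 12 h MOV10 alone was called, at 0.90 ± 0.20 (adjusted p = 0.0388), against 1.34% of genes, 0.984% above and 0.357% below 0. That call was lost under 12 of 20 other settings, with adjusted p up to 0.14, among them leaving out any 1 RNA-seq library of 12 h or replicate 2 of the control pull-down.

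**Figure D5:**
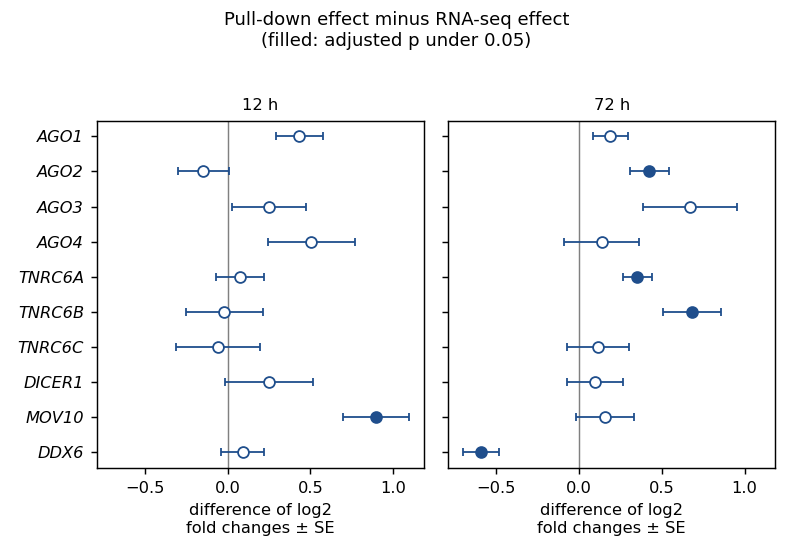
Pull-down effect minus RNA-seq effect of each member on the log2 scale with its standard error, at 12 h and 72 h, where filled points passed an adjusted p of 0.05. The filled points are MOV10 at 0.90 at 12 h and, at 72 h, TNRC6B, AGO2 and TNRC6A above 0 and DDX6 at -0.59.

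The GW182 transcripts were also well represented in the pull-down of the control mimic at 72 h. Set side by side, with each assay scaled on its own, the mean CPM of TNRC6A in the 72 h control was 44.9 in RNA-seq and 152 in the pull-down. TNRC6C had 7.17 and 30.7 CPM, and TNRC6B 14.5 and 30.3 CPM. MOV10 (21.93 and 34.96 CPM) and AGO1 (73.51 and 78.45 CPM) also read higher in that pull-down, and the other members read lower. At 12 h the ratio of pull-down to RNA-seq level in the control was 1.56 for TNRC6A and TNRC6C. It was 0.84 for TNRC6B, below AGO1 at 0.91. AGO4 (0.38) and DDX6 (0.55) were lowest. These ratios hold what any mimic and the beads retain, and were not tested. No ratio over all genes was set beside them.

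In the control cells most of the machinery was higher at 72 h than at 12 h. In RNA-seq 8 of 10 members were higher and none lower, against 74.4% of genes called, 36.1% higher and 38.4% lower. AGO1 rose most, from 43.0 ± 2.5 to 73.5 ± 0.75 CPM (log2 difference 0.77 ± 0.05, adjusted p = 8.72e-18), followed by TNRC6B (0.72 ± 0.10), MOV10 (0.67 ± 0.08), DICER1 (0.63 ± 0.07) and DDX6 (0.59 ± 0.04). AGO2 did not pass, with 89.7 ± 4.3 and 90.5 ± 2.4 CPM, nor did TNRC6C. In the pull-down 8 of 10 were higher, against 52.2% of genes called, 23.4% higher and 28.8% lower. TNRC6B rose 4.12-fold and MOV10 4.08-fold, from 8.57 ± 1.31 to 35.0 ± 1.9 CPM (adjusted p = 2.31e-09).

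These differences between the times depend on scaling. Scaled by library totals, the median of all genes stood at -0.25 in RNA-seq and -0.52 in the pull-down. The members' medians were 0.24 and 0.48. Under this scaling 5 members were called higher and 2 lower in RNA-seq, and 5 were called higher in the pull-down. The shares of all genes called under it are not given here, so these counts stand without a reference. Time after transfection cannot be told apart from anything else that differed between the collections, and the miR-497-5p comparisons at each time share these control libraries.

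The wider pathway was followed in 46 other genes in 6 roles, of which 43 were expressed enough to test (LIN28A, LIN28B and TRIM71 were not). At 12 h in RNA-seq 1 was higher and 4 were lower, against 12.5% of all genes called, 7.25% higher and 5.3% lower. The nuclease DROSHA, which releases the precursor hairpin, had a log2 fold change of -0.21 ± 0.05 (adjusted p = 0.000793), the Dicer partner TARBP2 -0.20 ± 0.06, the CCR4-NOT subunit CNOT11 -0.26 ± 0.05 and the decapping enzyme DCP2 -0.26 ± 0.06. LSM1, of the ring that promotes decapping, rose by 0.18 ± 0.05. In the pull-down at 12 h edgeR called none, with 6 of the 43 at an unadjusted p under 0.05, against 10.1% of all genes.

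At 72 h 16 of the 43 were higher and 16 lower in RNA-seq, where 57.5% of all genes were called, 27.9% higher and 29.6% lower. TARBP2 fell furthest among the 8 with the smallest adjusted p, from 43.7 ± 1.9 to 16.04 ± 1.14 CPM (log2 fold change -1.44 ± 0.07, adjusted p = 1.77e-23). It acts beside DICER1, which fell too, while the other of the 2 Dicer partners followed was called higher, at 0.2. RAN, the GTPase of precursor export, fell by 0.65 ± 0.03 and CNOT9 by 0.60 ± 0.04. The terminal uridylyltransferase TUT7 rose by 1.12 ± 0.09, the deadenylase CNOT7 by 0.68 ± 0.04 and the CCR4-NOT subunit CNOT2 by 0.74 ± 0.05. LSM14A, a partner of DDX6, rose by 0.67 ± 0.04, and the nuclease SND1 by 0.59 ± 0.04. Of the CCR4-NOT and PAN deadenylase genes 4 of 13 were higher and 4 lower, and of the decapping and decay genes 4 of 10 each way, beside those shares of all genes.

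In the 72 h pull-down 6 of the 43 were higher and 7 lower, against 22.7% of all genes called, 10.2% higher and 12.6% lower. SND1 (0.89 ± 0.11), CNOT7 (1.02 ± 0.16), the decapping factor DCP1A (0.85 ± 0.14) and the poly(A) binding protein gene PABPC1 (0.64 ± 0.11) rose. RAN (-0.67 ± 0.09) and the decapping factor PATL1 (-0.85 ± 0.16) fell. PABPC1, a direct partner of the GW182 proteins, had 9387 ± 432 CPM in the control and 14650 ± 1005 CPM with miR-497-5p. The medians of the 43 in the 4 comparisons lay between -0.03 and 0.12.

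The genes most like a member were sought over the 12 RNA-seq libraries among 10710 other genes that averaged 5 CPM or more, by the root mean square difference of log2 CPM, each gene centred on its own mean. Closest to AGO2 were LUZP1 (0.0582) and MON1B (0.0615), whose 12 h means were 28.4 and 29.2 CPM in the control and 24.8 and 26.0 CPM with miR-497-5p. Closest to AGO1 were FAM167A (0.0712) and SSH1 (0.0746), which are higher at 72 h as AGO1 is. Closest to DICER1 were PPP6R2 (0.0858) and ASPM (0.0908), whose 72 h means were 51.4 and 38.3 CPM in the control and 34.1 and 26.6 CPM with miR-497-5p.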

How the data were processed

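The authors deposited 1 table of raw counts per gene for each library. Per the submitters' processing notes, the tools were Trimmomatic 0.36, STAR 2.5.2b and featureCounts of Subread 1.5.2, with GRCh38. The strand setting and the handling of reads placed at several loci are not given in the sources used here. A gene of the opposite strand shares 12.9% of the exon bases of TNRC6C, but held 63 counts over the 24 libraries against 7905 for TNRC6C. Identifiers were matched to symbols for 98.1%, and each member matched 1 identifier.

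Fits to the counts used edgeR 4.0.16 (R 4.3.3): filterByExpr by group, TMM scaling, a robust quasi-likelihood fit over the 12 libraries of an assay (17335 genes in RNA-seq, 17477 in the pull-down), and Benjamini-Hochberg adjustment over all genes with a threshold of 0.05. The difference between assays was fitted over the 12 libraries of a time (17078 genes at 12 h, 16896 at 72 h). Values are log2 fold changes ± SE. Total counts set the precision: 21561816 to 30602007 per RNA-seq library and 8262425 to 30650982 per pull-down library. No library was dropped from these fits.

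Alternatives were scaling by library totals or relative log expression, DESeq2 1.42.0, no filter on low counts, only the libraries of a comparison, a replicate block, an offset for exon length (lowess span 0.3), and leaving out each library. Chosen after seeing the data were leaving out the 12 h libraries above 500 CPM of squamous markers, and the alternatives for the controls over time. The procedure was tested on simulated data: of genes changed by 1 on the log2 scale 85.9% were called in RNA-seq at 12 h and 38.5% in the pull-down at 12 h.

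Seed words came from the RefSeq sequence of miR-497-5p and were counted in 3′ UTRs of GENCODE release 44. The members and lists were chosen with earlier results of these data known. Named in the text are all 10 members, pathway genes called in RNA-seq at 12 h or the pull-down (at most the 6 with the smallest adjusted p), the 8 with the smallest adjusted p in RNA-seq at 72 h, and the 2 genes nearest to AGO1, AGO2 and DICER1.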

Additional observations from a re-analysis of the deposited data

Results flagged for a closer look

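The effect of miR-497-5p differed between 12 h and 72 h, by the test of that difference itself, for 8 combinations of member and assay. The same test called 48.8% of all genes in RNA-seq and 12.2% in the pull-down. In RNA-seq the log2 effect at 72 h minus that at 12 h was 0.86 for DDX6, 0.557 for TNRC6A, -0.445 for MOV10 and -0.296 for DICER1. In the pull-down it was 0.879 for TNRC6A, 0.874 for TNRC6B, 0.751 for AGO2 and -1.147 for MOV10. TNRC6A and MOV10 were named in both assays, with the same sign in each. The calls of DICER1 in RNA-seq and of AGO2 and TNRC6B in the pull-down were lost under some other settings, as given above.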

How the results depend on the processing

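Of 876 alternative values for single members, 769 kept their direction and their side of the threshold, 45 lost a call, 20 gained one and 42 changed sign. In 1 of these 42 the member had been called: AGO3 in the control RNA-seq over time, at -0.002 with library totals.

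Counts of members and genes called moved as follows. With library totals 5 members were called in RNA-seq at 12 h and 1 in the pull-down at 12 h, 400 genes in the 12 h difference between assays, and 5 members in the control pull-down over time. In the pull-down at 12 h relative log expression scaling, no filter and DESeq2 each called 1 member, and 217 genes without a filter and 341 with DESeq2 against 104. In the 12 h difference, with 229 genes, 573 were called without a filter, 974 with DESeq2 and 106 with the length offset, while relative log expression scaling and the length offset left 0 members by edgeR. The length offset left 2 members each in the pull-down over time and in the 72 h difference. Only the 6 libraries called 5 members in the pull-down at 72 h. Without the libraries rich in squamous markers 1427 genes were called in RNA-seq at 12 h, 616 genes and 1 member in the pull-down at 12 h, and 1769 genes and 0 members in their difference. These counts rest on 1 control library in RNA-seq and 1 miR-497-5p library in the pull-down, assumed to vary like the other groups. The cause was not tested.

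Deviations of same-numbered libraries of the 2 mimics correlated at 0.148, 0.093 and 0.448 in RNA-seq at 12 h and at -0.118 to 0.078 elsewhere. Libraries of unlike number correlated at -0.384 to 0.177 in RNA-seq at 12 h, where control replicate 2 matched another number best. Whether the numbers pair the samples there is not settled by these values. AGO1 and AGO2 were still called in RNA-seq at 12 h with a replicate block. Pairing between RNA-seq and pull-down libraries was not checked. A replicate block called 53 genes in the pull-down at 12 h and 0 members in the 12 h difference, where MOV10 was at 0.9 (adjusted p = 0.0599), and called TNRC6A in RNA-seq at 12 h at -0.166 (adjusted p = 0.0418). The block with the length offset called 56 genes in the pull-down at 12 h, 71 genes and 0 members in the 12 h difference, 1 member in the pull-down at 72 h (TNRC6B was lost, adjusted p = 0.0521), and 2 members each in the pull-down over time and in the 72 h difference.

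Leaving out 1 library at a time gave 2 to 3 members and 1433 to 2212 genes in RNA-seq at 12 h, fewest without control replicate 2. It gave 5 to 7 members and 9179 to 9391 genes in RNA-seq at 72 h, and 3 to 5 members and 7948 to 8390 genes in RNA-seq over time. In the pull-down it gave 0 to 1 members and 64 to 268 genes at 12 h, fewest without miR-497-5p replicate 3 and most without control replicate 3. It gave 2 to 3 members and 3232 to 3427 genes at 72 h, and 3 to 4 members and 1730 to 2130 genes over time. The difference between assays had 0 to 1 members and 42 to 683 genes at 12 h, fewest without RNA-seq control replicate 2 and most without pull-down miR-497-5p replicate 1, and 3 to 4 members and 1747 to 2853 genes at 72 h.

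The other changes of sign concern values that were not called. In RNA-seq at 12 h TNRC6B was at 0.088 with the length offset, 0.094 with block and offset and 0.184 without the squamous-rich libraries, where TNRC6C was at -0.1. In RNA-seq at 72 h AGO3 was at -0.092 with library totals, -0.014 without a filter and -0.139 with the offset, with or without the block, and TNRC6B at -0.031 with the offset and -0.032 with the block too. In the pull-down at 12 h TNRC6B and DDX6 were at 0.044 and 0.073 with library totals, and DDX6 at 0.013 in the 6 libraries alone. With the offset AGO3, TNRC6C and DICER1 were there at -0.031, -0.08 and -0.062, and with the block too at -0.051, -0.049 and -0.096. Without the squamous-rich libraries AGO1, TNRC6B and DICER1 were at -0.08, 0.032 and -0.627. In the pull-down at 72 h AGO1 was at -0.154 with the offset and -0.158 with the block too. With 1 library left out, ranges that cross 0 were -0.109 to 0.1 for TNRC6B in RNA-seq at 12 h, and -0.02 to 0.064 for AGO3 and -0.155 to 0.025 for AGO4 in RNA-seq at 72 h. In the pull-down at 12 h they were -0.042 to 0.23 for AGO3, -0.084 to 0.04 for DDX6, -0.131 to 0.225 for DICER1, -0.088 to 0.009 for TNRC6B and -0.168 to 0.15 for TNRC6C, and -0.034 to 0.075 for AGO1 at 72 h. Pull-down depth, lowest at 8262425 counts, limits what can be said of AGO4, with 74 counts in that library.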
